A study of Mus musculus with 10 samples.

Results

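A set of 8 genes of the intestinal immunoglobulin A (IgA) system were followed in RNA-seq libraries of mouse proximal intestine. They were chosen by name, and all were found among the 35275 Ensembl gene IDs of the count files. *Igha* encodes the constant region of the IgA heavy chain, *Ighm* that of the IgM heavy chain, and *Igkc* that of the kappa light chain. *Jchain* encodes the joining chain of polymeric IgA and IgM, *Mzb1* and *Derl3* encode proteins of the endoplasmic reticulum (ER) of antibody-secreting cells, *Tnfrsf17* encodes the survival receptor BCMA, and *Pigr* encodes the polymeric immunoglobulin receptor of the epithelium. The libraries came from 5 wild-type mice (WT) and 5 mice with a knockout of the metal transporter gene *Zip14* (*Slc39a14*, KO), 1 library per mouse, with no treatment named. The methods of the study describe the RNA-seq mice as whole-body knockouts compared with WT mice of the same strain, whereas the series carries a title about an enterocyte-specific deletion, a difference that the counts cannot settle. The labels give an age of 8 to 10 weeks for every mouse, the study's methods a wider range, and neither ties a sex to a library. Each library held between 16729787 and 20819678 counts.

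Plasma cells of the lamina propria secrete most of the antibody that reaches the gut lumen. Pairs of IgA monomers are joined by the J chain, bound by the polymeric receptor on the basolateral side of enterocytes, carried across the cell in vesicles and released at the brush border together with the cleaved ectodomain of the receptor. IgA plasma cells arise mainly from B cells that switch class in Peyer's patches and other lymphoid follicles, home to the mucosa through chemokines made by the epithelium, and live there on signals such as APRIL, the ligand of BCMA. Plasma cells lose much of the surface program of B cells, *Ms4a1* among it, but keep some of its genes, such as *Cd79a*.

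Levels are given as CPM after TMM normalization, which scales every library to the same total of counts and corrects for its composition. KO was compared with WT by edgeR's quasi-likelihood test over 15610 genes that passed a filter on low counts, with a Benjamini-Hochberg adjusted p under 0.05 as the threshold. At that threshold 29.9% of all genes tested were called, 16.0% higher and 13.9% lower in KO. In bulk tissue, fewer cells of a type and less RNA per cell cannot be told apart.

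The libraries were checked against their labels before the 8 genes were compared. *Slc39a14* was between 190.8 and 356.8 CPM in WT and between 78.5 and 160.1 CPM in KO (log2 fold change -1.35, adjusted p = 0.00184), so it was lower in every KO library and absent from none. All libraries are labelled proximal intestine, but the KO libraries carried the genes of the ileum. All 6 ileum genes were called higher in KO, and their summed level was between 226 and 265 CPM in WT and between 3359.5 and 10630 CPM in KO. Of 6 proximal genes, 5 were tested and all 5 were called lower, with a summed level between 4771 and 11921 CPM in WT and between 24.8 and 603 CPM in KO. *Fabp6*, the ileal bile acid binding protein, was at most 1.74 CPM in WT and at least 2307 CPM in KO, and *Apoa4*, a proximal apolipoprotein, was at least 3390 CPM in WT and at most 492.5 CPM in KO. Genotype and position along the intestine therefore cannot be told apart in any difference between KO and WT given here. Smooth muscle genes were also higher in KO (9 of 10 called, median log2 fold change 1.45), with a summed level between 1626 and 2659 CPM in WT and between 3598 and 10438 CPM in KO, KO replicate 4 being the highest.

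Promoters from RefSeq (GRCm38.p6) were matched by symbol for 4 of the 8 genes, *Pigr*, *Jchain*, *Derl3* and *Tnfrsf17*. The 250 bases before the start are shown for *Pigr* and *Jchain*, whose levels ran together across libraries, and for *Derl3*, which carries a rare ER stress element. *Pigr* is shown from chr1:130826434-130826683 on the plus strand, *Jchain* from chr5:88527898-88528147 on the minus strand and *Derl3* from chr10:75893148-75893397 on the plus strand. Each is written 5′ to 3′ along its gene, and capitals mark the motifs found.
Pigr: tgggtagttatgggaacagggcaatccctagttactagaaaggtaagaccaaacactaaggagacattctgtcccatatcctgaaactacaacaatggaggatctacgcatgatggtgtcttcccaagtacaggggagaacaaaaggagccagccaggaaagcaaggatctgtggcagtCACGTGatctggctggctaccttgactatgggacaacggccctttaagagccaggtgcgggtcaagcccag
Jchain: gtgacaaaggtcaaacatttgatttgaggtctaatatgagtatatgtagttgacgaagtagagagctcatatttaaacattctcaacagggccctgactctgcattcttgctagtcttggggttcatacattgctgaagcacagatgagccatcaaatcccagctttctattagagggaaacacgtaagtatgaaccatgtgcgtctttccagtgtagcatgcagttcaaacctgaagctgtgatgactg
Derl3: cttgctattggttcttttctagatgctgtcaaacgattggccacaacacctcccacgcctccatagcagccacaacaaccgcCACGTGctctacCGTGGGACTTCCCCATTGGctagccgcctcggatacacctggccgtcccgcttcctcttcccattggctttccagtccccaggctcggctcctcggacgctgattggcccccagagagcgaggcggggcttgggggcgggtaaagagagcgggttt

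The first capitals in *Derl3* and those in *Pigr* are the E-box CACGTG, the core of sites for bHLH factors such as USF, which lies 71 to 66 bases before the *Pigr* start and 168 to 163 bases before the *Derl3* start. It occurs in 1978 of 32851 promoters of the same length (6.02%). The second capitals in *Derl3*, 156 to 138 bases before the start, match the ER stress response element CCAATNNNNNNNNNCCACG on the opposite strand, which is found in 37 of the promoters (0.113%). That element is known as a site where the unfolded protein response acts. The *Derl3* motifs do not overlap each other. *Tnfrsf17* held GAAANNGAAA, an interferon-stimulated response element, on the opposite strand 101 to 92 bases before its start, as did 978 promoters (2.98%). Neither the octamer ATGCAAAT of B cell promoters (526 promoters, 1.60%) nor TTCNNNGAA, a STAT site (2306 promoters, 7.02%), was found in the 4 windows. Both strands were searched for every motif, and a match is a description of these letters only.

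None of the 8 genes passed the test in the 10 libraries. All 8 were tested, 0 were called by edgeR against a background of 29.9%, and 1 of them, *Pigr*, had an unadjusted p under 0.05. DESeq2 called 1 of the 8, *Pigr*, where it called 30.8% of all the genes it tested. The WT and KO libraries overlapped for each of the 8, while they did not overlap for 21.1% of all genes tested. The log2 fold change was below 0 for 6 of them and above 0 for 2, with a median of -0.43 beside 0.03 over all genes tested. KO replicate 4 was the lowest of all 10 libraries in 7 of the genes and the highest in the other, *Ighm*.

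**Figure D1:**
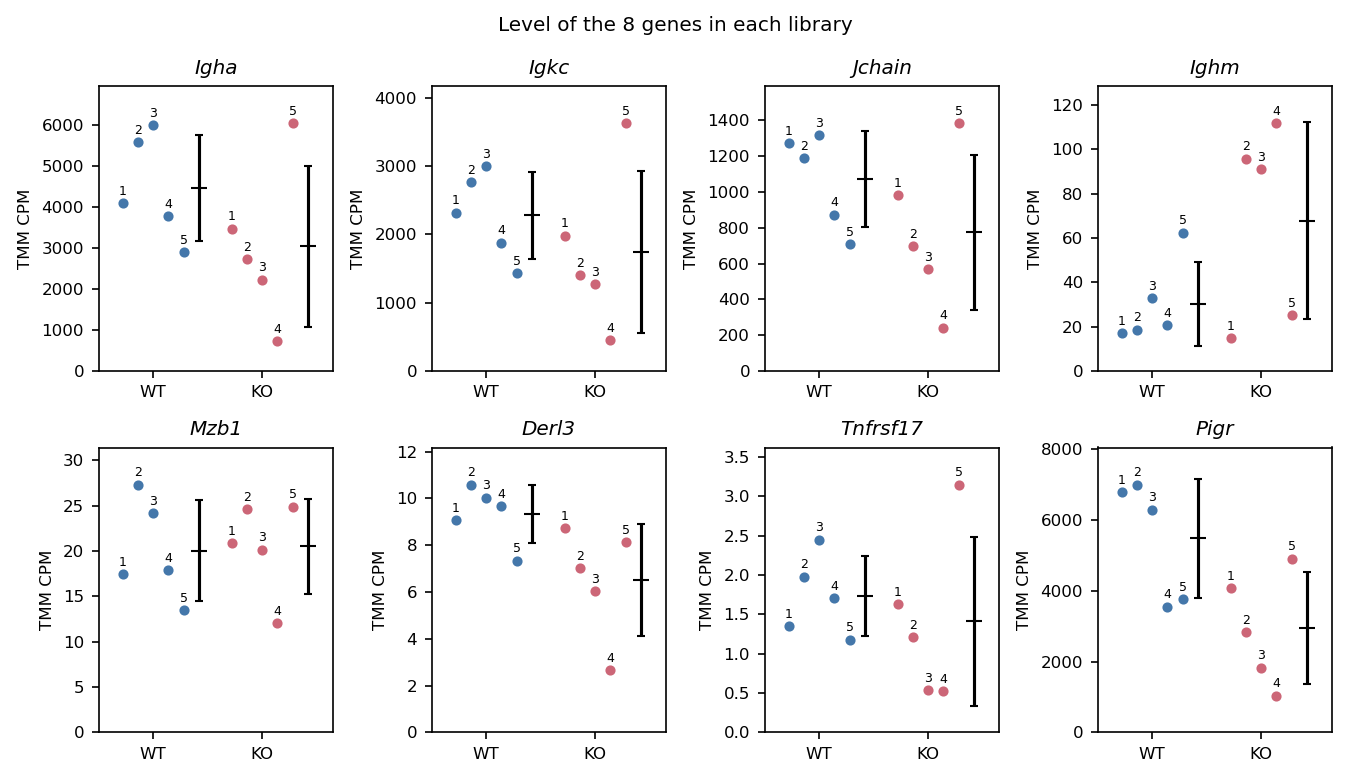
Level of the 8 genes in TMM CPM (y axis, linear from 0) in each library of WT (blue) and KO (red), with the replicate number above each point and the mean and SD of 5 libraries beside it. WT and KO libraries overlap in every panel, KO replicate 4 is the lowest library in all panels except *Ighm*, and KO replicate 5 is the highest for *Igha*, *Igkc*, *Jchain* and *Tnfrsf17*.

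*Igha* (ENSMUSG00000095079) maps to chromosome 12, 113254830 to 113260236, minus strand (GRCm38, as for the other genes), in 4 separate exon blocks. Its level was 4086, 5568, 5985, 3762 and 2886 CPM in WT replicates 1 to 5 and 3466, 2716, 2223, 721 and 6033 CPM in KO replicates 1 to 5. The highest and the lowest library were both KO, and the KO libraries spanned 8.37-fold against 2.07-fold in WT. The means were 4457 ± 1290 CPM in WT and 3032 ± 1955 CPM in KO (SD, n = 5 each). The log2 fold change was -0.56 (standard error 0.44, 95% interval -1.52 to 0.41, adjusted p = 0.354 in edgeR).

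*Igkc* (ENSMUSG00000076609) is a single exon at chromosome 6, 70726435 to 70726966, plus strand, where the annotation also has *Gm30211* on that strand. Kappa is the light chain of most mouse antibodies. Its level was 2318, 2766, 2997, 1879 and 1431 CPM in the WT libraries and 1979, 1404, 1271, 450.2 and 3629 CPM in the KO libraries. The order of the libraries was close to that of *Igha*, and the log2 fold change was -0.38 (standard error 0.44, 95% interval -1.34 to 0.58, adjusted p = 0.527).

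*Jchain* (ENSMUSG00000067149) maps to chromosome 5, 88519809 to 88527891, minus strand, in 4 exon blocks. It was at 1272, 1189, 1318, 873 and 707 CPM in WT and at 981, 697, 568, 242 and 1384.5 CPM in KO. Of 5 KO libraries, 4 lay below the WT mean of 1072 CPM, and KO replicate 5 lay above every WT library. The log2 fold change was -0.47 (standard error 0.38, 95% interval -1.30 to 0.36, adjusted p = 0.364).

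The 3 genes of the secreted antibody kept nearly fixed proportions while their levels varied. *Igkc* held between 49.6 and 62.4 counts per 100 *Igha* counts over the 10 libraries, a 1.26-fold range. *Jchain* held between 21.4 and 33.6 counts per 100 *Igha* counts, a 1.57-fold range. In both ratios KO replicate 4, which had the least *Igha*, had the highest value. Per length of exon, the order of mean levels in WT was *Igkc* (4283 ± 1201 CPM per kb), *Igha* (1671 ± 484), *Pigr* (1362 ± 419), *Jchain* (426 ± 106), *Mzb1* (16.5 ± 4.59), *Ighm* (16.1 ± 10.1), *Derl3* (4.69 ± 0.625) and *Tnfrsf17* (2.12 ± 0.623), all as mean ± SD of 5 libraries. *Igha* and *Pigr*, and *Mzb1* and *Ighm*, were closer to each other than their SD, and the other neighbours lay further apart. In KO the order was the same except that *Ighm* (35.9 ± 23.6 CPM per kb) stood above *Mzb1* (16.9 ± 4.28), a pair within the SD of *Ighm*. In KO *Igkc* (3283 ± 2228 CPM per kb) and *Igha* (1136 ± 733), and *Igha* and *Pigr* (731 ± 394), were also closer to each other than the larger SD.

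*Ighm* did not follow *Igha*. *Ighm* (ENSMUSG00000076617), at chromosome 12, 113418558 to 113422730, minus strand, in 6 exon blocks, encodes the heavy chain of naive B cells as well as that of secreted IgM. It was at 17.1, 18.6, 33.0, 20.7 and 62.4 CPM in WT and at 14.6, 95.8, 91.1, 111.8 and 25.1 CPM in KO. KO replicates 2, 3 and 4 lay above all WT libraries, and the other 2 lay among the lowest 5 of all 10. The log2 fold change was 1.16 (standard error 0.56, 95% interval -0.07 to 2.38, adjusted p = 0.134), and without KO replicate 1, the lowest library, it was 1.41 and passed the test (adjusted p = 0.0406). Among the counts of heavy chain constant genes, *Igha* held between 98.9% and 99.3% in 6 libraries. It held 96.0% in WT replicate 5 and 94.3%, 92.7% and 81.3% in KO replicates 2, 3 and 4, in which *Ighm* held 2.08%, 3.33%, 3.80% and 12.6%.

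The same 4 libraries carried the genes of B cells. The summed level of 15 B cell genes was 175.9 CPM in WT replicate 5 and 292.3, 330.2 and 413.7 CPM in KO replicates 2, 3 and 4, and between 27.9 and 43.5 CPM in the other 6 libraries. By group it was between 27.9 and 175.9 CPM in WT and between 29.6 and 413.7 CPM in KO. Of the 12 tested, 2 were called higher in KO, the BAFF receptor gene *Tnfrsf13c* (log2 fold change 2.67, adjusted p = 0.0428) and the follicle homing receptor gene *Cxcr5* (2.11, adjusted p = 0.0424), and none lower, with a median of 1.715 over the 12. The B cell receptor gene *Cd79a* was at 1.66 (adjusted p = 0.0517 in edgeR) and passed in DESeq2 (1.64, adjusted p = 0.0357). None of the 15 was at or under 3 counts in all libraries. *Cr2*, which encodes a complement receptor of follicular B cells, did not pass the filter. It ranged from 0.104 to 13.7 CPM in WT and from 0.157 to 22.5 CPM in KO.

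**Figure D2:**
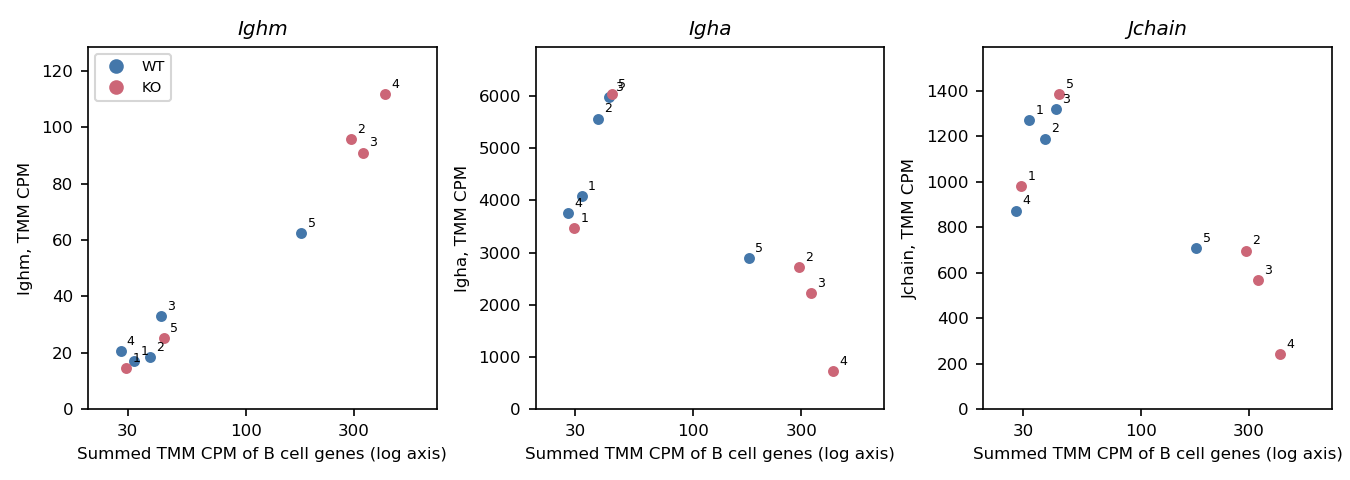
Level of *Ighm*, *Igha* and *Jchain* (y axes, TMM CPM) against the summed TMM CPM of 15 B cell genes (x axis, logarithmic) in each of the 10 libraries, numbered by replicate, WT in blue and KO in red. The 4 libraries with 175.9 CPM or more of B cell genes have the 4 highest levels of *Ighm* and the 4 lowest levels of *Igha* and *Jchain*.

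In these 4 libraries *Ighm* was between 62.4 and 111.8 CPM and in the other 6 between 14.6 and 33.0 CPM. *Igha* lay between 721 and 2886 CPM in the 4 and between 3466 and 6033 CPM in the 6, and *Jchain*, *Igkc*, *Tnfrsf17* and *Derl3* were likewise lower in each of the 4 than in any of the 6. *Pigr* and *Mzb1* overlapped. The libraries were sorted here by the B cell genes themselves, and 3 of the 4 were KO, so no test was made of that division. Without the 4 libraries, which left 4 WT and 2 KO, the log2 fold change of *Ighm* was -0.17, of *Igha* -0.03, of *Jchain* 0.02, of *Igkc* 0.17 and of *Tnfrsf17* 0.36, and no member was called. With the mean log2 level of the B cell genes as a covariate over all 10 libraries, the values were -0.18 for *Ighm*, -0.09 for *Igha*, -0.02 for *Jchain*, 0.10 for *Igkc* and 0.21 for *Tnfrsf17*. The signs of *Ighm*, *Igkc* and *Tnfrsf17* turned in both. The 4 libraries held the 4 highest levels of *Ighm* and the 4 lowest of *Igha* and *Jchain*, so such shifts were built into their choice. The first fit left few libraries, and the covariate was highest in 3 KO libraries, so an absent call carries little weight. The part of B cells in the differences was not tested.

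**Figure D3:**
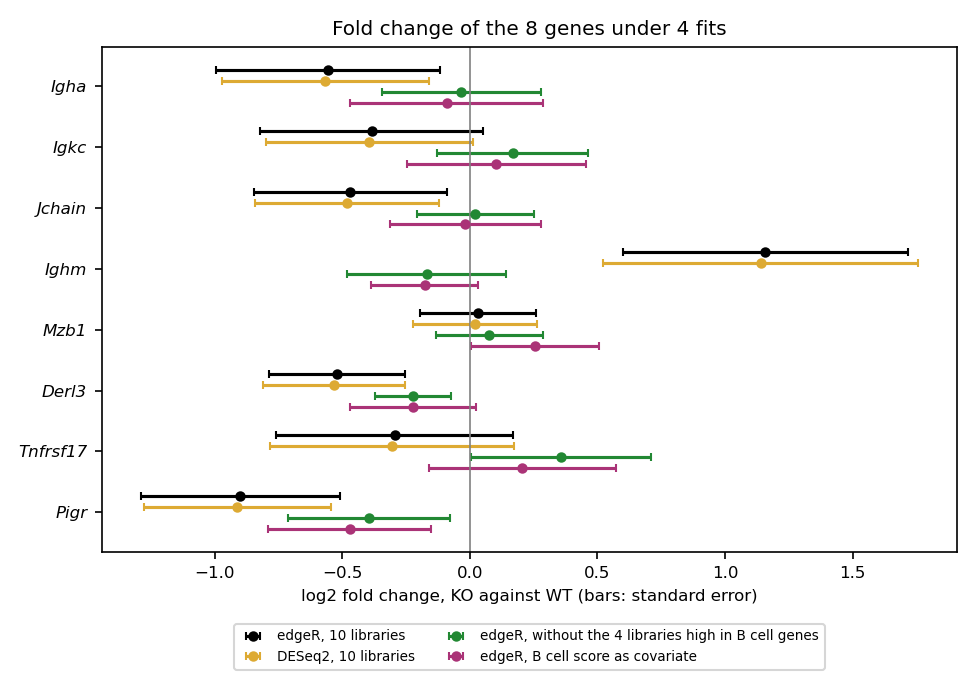
Log2 fold change of KO against WT (x axis) for the 8 genes (rows) in 4 fits, with bars for the standard error. *Ighm* moves from 1.16 with 10 libraries to -0.17 without the 4 libraries high in B cell genes, and *Pigr* stays below 0 in all 4 fits, at -0.90, -0.91, -0.40 and -0.47. The 4 libraries were chosen after seeing the data and have the highest *Ighm*, so that shift was built into the choice.

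The genes of the secretory machinery and of survival were at low levels. *Mzb1* (ENSMUSG00000024353, minus strand of chromosome 18, 35647267 to 35649367, 4 blocks of exons, overlapped on the same strand by *SPATA24*) encodes an ER co-chaperone that assists antibody assembly in plasma cells and marginal zone B cells. It was at 17.4, 27.3, 24.1, 17.9 and 13.4 CPM in WT and at 20.8, 24.6, 20.1, 12.0 and 24.9 CPM in KO. The ranges were alike, with a log2 fold change of 0.03 (standard error 0.23, 95% interval -0.47 to 0.53, adjusted p = 0.926), and *Mzb1* was the gene of the 8 with the smallest fold range in KO, 2.07. Relative to *Igha* it varied more than the antibody genes did. It held between 4.04 and 4.90 counts per 1000 *Igha* counts in WT and 6.01, 9.06, 9.06, 16.7 and 4.12 in KO replicates 1 to 5.

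*Derl3* (ENSMUSG00000009092, plus strand of chromosome 10, 75893413 to 75895941, 4 blocks of exons) encodes a derlin, a membrane protein that takes part in the removal of misfolded proteins from the ER. Its level was 9.08, 10.6, 10.0, 9.67 and 7.34 CPM in WT and 8.73, 7.03, 6.04, 2.67 and 8.13 CPM in KO. Only WT replicate 5 fell within the KO range. The log2 fold change was -0.52 (standard error 0.27, 95% interval -1.11 to 0.07, adjusted p = 0.159), and it was -0.22 both without the 4 libraries high in B cell genes and with the B cell covariate.

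*Tnfrsf17* (ENSMUSG00000022496, plus strand of chromosome 16, 11313812 to 11320074, 3 blocks of exons) had between 10 and 60 counts per library, so that counting error adds to its spread. It was at 1.35, 1.98, 2.45, 1.70 and 1.18 CPM in WT and at 1.63, 1.21, 0.540, 0.524 and 3.15 CPM in KO. KO held both the lowest and the highest libraries, and the log2 fold change was -0.29 (standard error 0.46, 95% interval -1.31 to 0.72, adjusted p = 0.653). Relative to *Igha*, *Tnfrsf17* held between 2.43 and 7.27 counts per 10000, both extremes in KO.

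*Pigr* had the lowest adjusted p of the 8 genes. The gene (ENSMUSG00000026417) maps to chromosome 1, 130826684 to 130852249, plus strand, in 13 exon blocks. Its level was 6797, 7001, 6296, 3556 and 3761 CPM in WT and 4085, 2836, 1833, 1035 and 4913 CPM in KO. WT replicates 4 and 5 lay within the KO range, and the other 3 WT libraries lay above it. The same WT libraries were the lowest of WT in the summed level of the proximal genes, though not in each gene of that list. *Apoa4* was at 3390 and 3865 CPM in them against 5648 to 9063 CPM in the other 3, and *Fabp1* at 1191 and 1596 CPM against 2492 to 3063 CPM. Among the KO libraries KO replicate 5, the highest in *Pigr*, had the lowest *Apoa4*, and the part of position in the *Pigr* levels was not tested. The means were 5482 ± 1686 CPM in WT and 2941 ± 1586 CPM in KO (SD, n = 5 each), with a log2 fold change of -0.90 (standard error 0.39, 95% interval -1.76 to -0.04, adjusted p = 0.102 in edgeR). DESeq2 gave -0.91 (adjusted p = 0.0425), and without KO replicate 5, the highest KO library, edgeR gave -1.16 (adjusted p = 0.0479). Without the 4 libraries high in B cell genes the value was -0.40 and with the B cell covariate -0.47, neither of which passed. The former fit left few libraries, and the covariate was highest in KO libraries.

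*Pigr* is made by epithelial cells, and its level was also set against theirs. Of 10 epithelial genes 7 were called higher in KO and none lower (median 0.55), with a summed level between 11813 and 13704 CPM in WT and between 13881 and 20010 CPM in KO. Among them *Krt18* was at 1.26 (adjusted p = 0.00205), *Krt19* at 1.10 (adjusted p = 0.00101) and *Krt8* at 0.77 (adjusted p = 0.00383) on the log2 scale, while the brush border gene *Vil1* was at -0.49 (adjusted p = 0.105) and *Krt20* at -0.35 (adjusted p = 0.193). The log2 CPM of *Pigr* minus the mean log2 CPM of the 10 genes was 3.05, 3.32, 3.18, 2.11 and 2.21 in WT and 1.91, 1.52, 0.841, 0.111 and 1.96 in KO. Every KO library lay below every WT library on this measure. The difference was -1.51 (2.77 ± 0.567 in WT, 1.27 ± 0.787 in KO, SD, n = 5 each), with a 2-sided exact permutation p of 0.00794, the smallest that 5 against 5 can give, and 0.0370 after adjustment over 7 quantities tested in this way. Without the 4 libraries high in B cell genes it was -0.98 (4 WT against 2 KO, exact p = 0.133), a design that cannot reach 0.05. The separation depended on the reference, of which 7 genes were themselves higher in KO. With each gene of the list alone as the reference, the difference was between -2.26 and -0.49. The groups overlapped for the 3 genes not called higher, *Cdh1* (-1.23, exact p = 0.0317), *Krt20* (-0.63, exact p = 0.0952) and *Vil1* (-0.49, exact p = 0.159), and the last 2 did not pass. Against *Vil1* the log2 difference was 1.12, 1.17, 1.11, 0.205 and 0.242 in WT and 0.366, 0.563, 0.0331, -0.398 and 0.835 in KO.

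**Figure D4:**
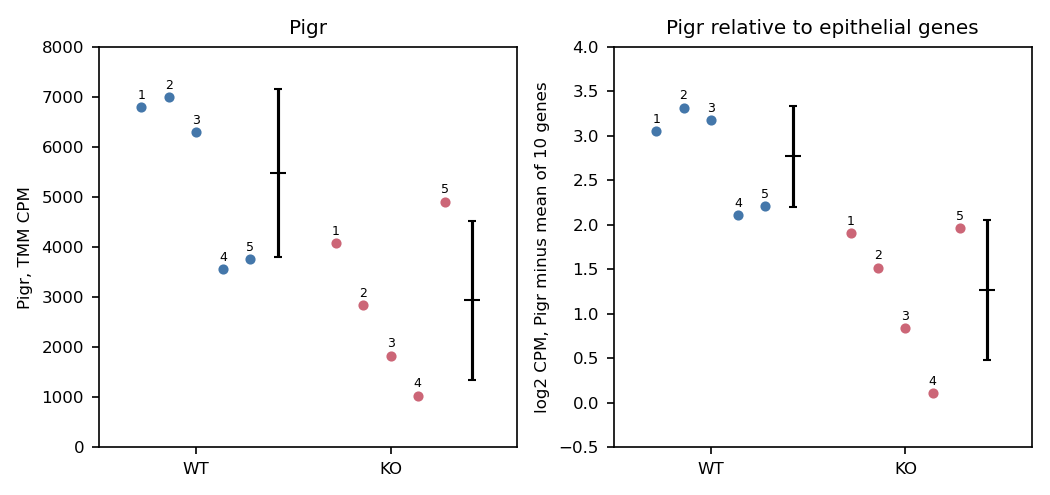
*Pigr* in each library as TMM CPM (left) and as log2 CPM minus the mean log2 CPM of 10 epithelial genes (right), with replicate numbers and the mean and SD of 5 libraries. On the left WT replicates 4 and 5 lie within the KO range, and on the right the 5 KO libraries, from 0.111 to 1.96, lie below the 5 WT libraries, from 2.11 to 3.32, a separation that is lost with *Cdh1*, *Krt20* or *Vil1* alone as the reference.

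The genes whose within-group pattern was nearest to *Pigr* and to *Jchain* were sought over all 10 libraries, by the root mean square difference of log2 CPM deviations from the group means. The nearest to *Pigr* was *Jchain* (0.169 on the log2 scale), followed by *Xdh* (0.193), *Herc6* (0.211), *Itgae* (0.218) and *Gm26761* (0.222), out of 5299 genes compared. The nearest to *Jchain* were *Igkc* (0.150), *Pigr* (0.169), *Igha* (0.189), *Xdh* (0.198) and *Aunip* (0.214), out of 5304. An epithelial and a plasma cell gene thus had the nearest deviations on one side and the second nearest on the other. Both pass through the same libraries, of which KO replicate 4 was the lowest in each, and no test was made. *Xdh*, the xanthine dehydrogenase gene, was lower in KO (log2 fold change -1.43, adjusted p = 0.0116).

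Other plasma cell genes were not lower as a list, but the list did not follow the antibody genes. Of 20 listed, 19 were tested, 2 were called higher and 1 lower, with a median log2 fold change of 0.02 beside 0.03 over all genes. The summed level was between 1147 and 1291 CPM in WT and between 1108 and 1552 CPM in KO, where *Igha* spanned 8.37-fold. It is therefore not read as a measure of plasma cell number. *Sdc1*, which encodes the plasma cell marker CD138 and is also made by epithelium, was higher (0.998, adjusted p = 2.5e-04), as was the signal peptidase subunit gene *Sec11c* (0.54, adjusted p = 0.00502). *Ell2*, an elongation factor that favours secretory heavy chain transcripts, was lower (-0.57, adjusted p = 0.0194). The most abundant, *Txndc5*, *Xbp1* and *Edem1*, were at 0.24, -0.19 and -0.13 and did not pass, though *Txndc5* did with scaling to library size only (0.36, adjusted p = 0.0243).

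Genes of class switching and of the signals for IgA plasma cells were read beside the 29.9% of all genes tested that were called, 16.0% higher and 13.9% lower. Of 8 germinal centre and class switch genes tested, 2 were called higher, *S1pr2* (0.84, adjusted p = 0.0074), which confines B cells to germinal centres, and *Batf* (0.65, adjusted p = 0.0378), and none lower (median 0.44). Of 13 tested signals that recruit and keep IgA plasma cells, 1 was called (median -0.05), *Tnfsf13*, which encodes APRIL, a ligand of BCMA. Its log2 fold change was -1.31 (adjusted p = 0.0209), with between 4.45 and 11.2 CPM in WT and between 1.72 and 5.09 CPM in KO. The plasma cell chemokine genes *Ccl25* (-0.42, adjusted p = 0.187), *Ccl28* (0.15, adjusted p = 0.709) and *Cxcl12* (0.35, adjusted p = 0.0754) did not pass, though *Cxcl12* did with scaling to library size only (0.48, adjusted p = 0.0406).

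Genes that act on *Pigr* or travel with it were compared next. Of 16 tested cytokines, receptors and factors that act on *Pigr* transcription, 4 were higher and 1 lower (median 0.21). *Tnf* (1.44, adjusted p = 0.041), *Relb* (0.88, adjusted p = 0.00434) and the interferon gamma receptor gene *Ifngr1* (0.55, adjusted p = 0.00343) were higher. The interleukin-4 receptor gene *Il4ra* was also higher (0.31, adjusted p = 0.0144), while *Stat6*, the interleukin-4 signal transducer, was lower (-0.34, adjusted p = 0.0405). The *Stat6* call was lost with scaling to library size only (-0.23, adjusted p = 0.0911). The level of *Tnf* was between 0.817 and 1.23 CPM in WT and 1.13, 1.36, 1.19, 4.96 and 4.88 CPM in KO replicates 1 to 5, so that KO replicates 4 and 5 stood well above the rest and the groups overlapped. *Irf1*, which binds the *Pigr* gene, was at 0.28 (adjusted p = 0.469). Of 15 tested Fc receptor and transport relatives, 3 were higher and none lower (median 0.07), the vesicle genes *Rab3d* (0.71, adjusted p = 0.0104) and *Rab11a* (0.31, adjusted p = 0.0436) and the inhibitory Fc receptor gene *Fcgr2b* (0.48, adjusted p = 0.0231). *Vps35* and *Myo5b*, at -0.15 and -0.02, did not pass, and the sign of *Myo5b* turned to 0.10 with scaling to library size only.

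Other genes of protein folding and disposal in the ER were put to the same test. Of 12 genes of derlins and ER-associated degradation, 3 were lower and none higher (median -0.25). They were *Os9* (-0.51, adjusted p = 0.00992), *Sel1l* (-0.44, adjusted p = 0.0392) and the derlin gene *Derl1* (-0.27, adjusted p = 0.0401). *Sel1l* was not called with scaling to library size only (-0.33, adjusted p = 0.0839). The other derlin gene of the list, *Derl2*, was at 0.05 (adjusted p = 0.659). Of 14 tested ER chaperones and folding enzymes, 3 were lower and none higher (median -0.09), with *P4hb* at -1.46 (adjusted p = 9.8e-04) and *Ero1lb* at -1.17 (adjusted p = 0.00498). The summed level of the latter list was between 4795 and 6417 CPM in WT and between 2885 and 4739 CPM in KO, without overlap. That separation rested on *P4hb*, which held between 1955 and 3291 CPM in WT and between 708 and 1320 CPM in KO, and the sum of the other genes overlapped, between 2784 and 3126 CPM in WT and between 2176 and 3775 CPM in KO. The most abundant others, *Hspa5* and *Calr*, were at -0.21 (adjusted p = 0.334) and 0.13 (adjusted p = 0.611).

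Antibody variable (V) genes were read as a further view of the plasma cells. The files held 108 heavy chain (*Ighv*), 103 kappa (*Igkv*) and 3 lambda (*Iglv*) V genes, which resemble each other, so that the authors' counting could split reads between them. Of 155 tested, 45 were called lower in KO and none higher, where 13.9% of all genes tested were called lower and 16.0% higher. The median log2 fold change was -1.54 beside 0.03 over all genes tested. Only 49 and 61 *Ighv* genes reached 3 counts in KO replicates 3 and 4, against 83 to 87 in WT. V genes could thus pass the filter more easily through WT, which favours lower calls. Their direction was not tested apart from that filter. The lowest among the called were *Igkv3-7* (-3.82, adjusted p = 0.00234) and *Ighv2-4* (-3.75, adjusted p = 0.00801), and the most abundant, *Iglv1* (-0.94), *Igkv1-110* (-1.21) and *Igkv1-117* (-0.51), did not pass. *Ighv* counts were between 13776 and 31318 in WT and between 971 and 16026 in KO. The log2 of their summed CPM was 10.2, 9.99, 10.8, 9.56 and 9.95 in WT and 9.34, 9.04, 7.58, 5.53 and 9.72 in KO. Only KO replicate 5 exceeded the lowest WT library, and the difference was -1.87 (10.1 ± 0.467 in WT, 8.24 ± 1.72 in KO, SD, n = 5 each, 2-sided exact permutation p = 0.0159, adjusted p = 0.0370). Without KO replicate 4 it was -1.19 (exact p = 0.0317), and without the 4 libraries high in B cell genes -0.62 (exact p = 0.267).

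The V genes were also set against the constant genes they are joined to. Per 100 *Igha* counts the *Ighv* counts were between 18.3 and 34.2 in WT and between 6.42 and 19.4 in KO. Per 100 *Igkc* counts the *Igkv* counts were between 64.3 and 73.4 in WT and 81.1, 65.3, 39.7, 29.5 and 37.0 in KO replicates 1 to 5. The log2 summed CPM differed by -1.18 for *Igkv* and by -1.17 for *Iglv*, each with an exact permutation p of 0.0873 (adjusted p = 0.122), and these did not pass. Without KO replicate 4 they were -0.59 and -0.61, while *Igkv* passed without KO replicate 1 (-1.49, exact p = 0.0317) and *Iglv* without KO replicate 2 (-1.53, exact p = 0.0317) or WT replicate 4 (-1.39, exact p = 0.0476). Lambda held 13.2 ± 3.94% of light chain V counts in WT and 13.9 ± 6.64% in KO (SD, n = 5 each, exact permutation p = 0.857).

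The effective number of heavy chain V genes was lower in 4 of 5 KO libraries than in any WT library. By genes with at least 3 counts, WT libraries held between 83 and 87 *Ighv* genes, and KO replicates 1 to 5 held 82, 81, 49, 61 and 74. That number also depends on how many counts a library holds. The effective number of *Ighv* genes, 1 over the sum of the squared shares of the *Ighv* counts, was 31.6, 27.7, 31.1, 41.1 and 30.5 in WT and 23.3, 12.7, 7.53, 29.4 and 10.3 in KO. KO replicate 4, with the fewest *Ighv* counts, was the single KO library within the WT range. The difference was -15.8 (32.4 ± 5.12 in WT, 16.7 ± 9.32 in KO, SD, n = 5 each, 2-sided exact permutation p = 0.0159, adjusted p = 0.0370), and without the 4 libraries high in B cell genes it was -16.1 (exact p = 0.133, a design that cannot reach 0.05). The 5 leading *Ighv* genes held between 22.9% and 32.5% of the *Ighv* counts in WT, and 37.6%, 48.1%, 70.3%, 31.3% and 51.5% in KO replicates 1 to 5. The leading gene differed between libraries. *Ighv10-1* led in KO replicates 2, 3 and 4 with 20.3%, 24.0% and 9.37%, *Ighv1-26* in KO replicate 5 with 23.8% and in WT replicates 1 and 4 with 7.22% and 6.82%, and *Ighv3-6* in KO replicate 1 with 10.7%. In WT replicate 2 *Ighv6-6* led with 11.7%, in WT replicate 3 *Ighv1-81* with 7.06% and in WT replicate 5 *Ighv6-3* with 8.59%. For *Igkv* the effective number was 28.3 ± 5.83 in WT and 20.3 ± 7.54 in KO (SD, n = 5 each, exact permutation p = 0.111, adjusted p = 0.130), which did not pass.

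**Figure D5:**
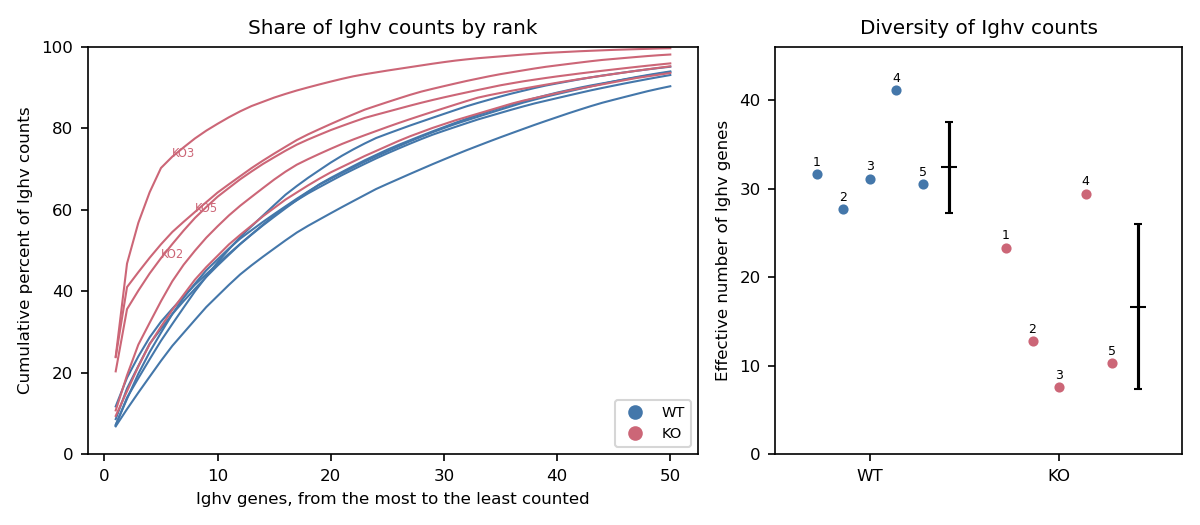
Left, cumulative percent of *Ighv* counts (y axis) over the 50 most counted *Ighv* genes of each library (x axis, rank), WT in blue and KO in red, with the 3 libraries of the steepest start named. Right, effective number of *Ighv* genes in each library with the replicate number and the mean and SD of 5 libraries, from 27.7 to 41.1 in WT and from 7.53 to 29.4 in KO.

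Constant genes of the other classes were low beside *Igha*. None of 5 tested was called (median 0.79), with *Ighg1* and *Ighg2b* both at 0.79 (adjusted p = 0.245 and 0.28) and the lambda gene *Iglc2* at -0.12 (adjusted p = 0.858). *Ighg2b* was highest in KO replicate 2, at 50.3 CPM, and lowest in KO replicate 1, at 5.46 CPM. Its share of heavy chain constant counts was highest in KO replicate 4, at 3.40%, where *Igha* was lowest.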

How the data were processed

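Total RNA of proximal intestine was sequenced from 5 WT and 5 KO mice, 1 library per mouse. For every library the authors deposited unnormalized read counts, 1 whole number for each Ensembl gene ID. Per the submitters' processing notes, FastQC 0.11.9, Trimmomatic, HISAT2 2.0.4, SAMtools 1.3.1 and DESeq2 1.14.1 were used with the builds GRCm38 and mm10. How reads were counted (program, annotation, strand) is not given in the sources used here. Overlapping genes may share reads. Groups and replicate numbers came from the sample labels. The series' design text gives 5 mice per group, and no 2 libraries held the same counts.

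Gene IDs were named by GENCODE M21 (GRCm38), which gave symbols to 34490 of 35275. The 785 others held at most 0.0827% of a library's counts and stayed in the test. Genes were tested with edgeR 4.0.16 in R 4.3.3 (quasi-likelihood, TMM, filterByExpr with a minimum count of 10 and a minimum total of 15) on all 10 libraries, with Benjamini-Hochberg adjustment over 15610 genes. Standard errors are the fold change over the square root of F, and 95% intervals use the t distribution of the model. Single values per library were compared by 2-sided exact permutation over all splits with scipy 1.17.1, on log2 CPM with a prior count of 2 where log2 CPM enters. On counts simulated for the 15610 genes with 200 changed by a log2 fold change of 2 in either direction, edgeR recovered 193 with 10 false calls and DESeq2 200 with 26. A count of 0 allows up to 3 counts, a limit that covers counting error only, whereas the intervals of the model include the spread between mice.

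The 8 genes and the 17 gene lists were chosen with earlier results of these data known. Genes named beside the 8 are the 3 most abundant of each list, the 2 highest and 2 lowest log2 fold changes among its called genes, the 5 genes nearest to *Jchain* and to *Pigr*, and *Slc39a14*. *Cr2*, *Cdh1*, *Il4ra*, *Derl1*, *Derl2* and the leading *Ighv* gene of each library were named after their values were seen. Alternatives were RLE normalization, library size only, DESeq2 1.42.0, no filter on low counts, a filter on a mean count of 10, the replicate number as a block, leaving out each library, and, chosen after seeing the data, leaving out the 4 libraries highest in B cell genes, a B cell covariate, single epithelial genes other than *Krt8* as the reference of *Pigr*, and single-library omissions for the V gene quantities. V gene diversity and the lambda share of V counts were also chosen after seeing the data. The lambda share of constant counts was not analysed here.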

Additional observations from a re-analysis of the deposited data

Results flagged for a closer look

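Values of 110 groups of 5 libraries were screened for a library that stood apart from the other 4 by Dixon's ratio (critical value 0.71), a screen that chance alone trips in about 1 of 20 groups, and 13 stood out. Of these, 5 were WT replicate 5 in B cell genes, with 27.2 CPM of *Cd79a*, 24.9 of *Cd37*, 17.1 of *Cd79b*, 3.98 of *Cxcr5* and 5.44 of *Tnfrsf13c*, each above the other 4 WT libraries. The same library had 34.9 CPM of *Ighg2b*, where the other WT libraries had between 7.86 and 13.3 CPM. *Iglc2* stood out at 86.5 CPM in WT replicate 3 and at 111.5 CPM in KO replicate 2, against at most 46.7 and 36.0 CPM in the other libraries of each group. *Ighg1* was at 42.1 CPM in KO replicate 3 and at most 11.2 CPM in the other KO libraries. *Irf1* was at 324.2 CPM in KO replicate 5 and at most 172 CPM in the others. *Ccl28* was at 51.0 CPM in WT replicate 1, *Txndc5* was at 247.3 CPM in WT replicate 3, the lowest of WT, and the effective number of *Igkv* genes was 18.4 in WT replicate 3, where the other WT libraries had between 29.0 and 33.2.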

How the results depend on the processing

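Without one library at a time, genes called higher numbered between 1634 (without WT replicate 2) and 2944, and genes called lower between 1573 and 2563, while between 0 and 1 of the 8 genes were called higher (1 without KO replicate 1) and between 0 and 1 lower (1 without KO replicate 5). The log2 fold changes then ran from -0.78 to -0.24 for *Jchain*, from -0.084 to 0.18 for *Mzb1*, from -1.16 to -0.68 for *Pigr*, from -0.97 to -0.30 for *Igha*, from 0.903 to 1.597 for *Ighm*, from -0.84 to -0.14 for *Igkc*, from -0.83 to -0.08 for *Tnfrsf17* and from -0.65 to -0.32 for *Derl3*. The sign of *Mzb1* turned without WT replicates 1, 4 and 5 and KO replicates 2 and 5 (-0.017, -0.024, -0.084, -0.050 and -0.047). Single-library omissions moved *Pigr* relative to epithelial genes between -1.68 and -1.22, the *Ighv* sum between -2.24 and -1.19, the *Igkv* sum between -1.49 and -0.59, the *Iglv* sum between -1.53 and -0.61, the lambda share between -1.29 and 2.42 percentage points, the effective number of *Ighv* genes between -18.9 and -13.5 and that of *Igkv* genes between -11.0 and -6.35. *Pigr* relative to epithelial genes, the *Ighv* sum and *Ighv* diversity stayed past an exact p of 0.05 in each of these omissions, and values that newly passed it were *Igkv* without KO replicate 1 (-1.49), *Iglv* without WT replicate 4 (-1.39) or KO replicate 2 (-1.53) and *Igkv* diversity without KO replicate 4 (-11.0), and the lambda difference turned to -0.52, -1.29 and -0.59 without WT replicate 4, KO replicate 2 and KO replicate 3. DESeq2 called 1 gene of the 8 lower, *Pigr* (-0.91). Without the 4 libraries high in B cell genes, 544 genes were called higher and 582 lower, and the signs turned for *Jchain* (0.022), *Ighm* (-0.17), *Igkc* (0.17), *Tnfrsf17* (0.36) and the lambda share (-4.16). *Pigr* relative to epithelial genes (-0.98), the *Ighv* sum (-0.62) and *Ighv* diversity (-16.1) did not pass, in a design of 4 against 2 libraries that cannot reach 0.05, and the first 2 were also smaller than over 10 libraries (-1.51 and -1.87). With the B cell covariate 1009 genes were called higher and 1131 lower, and the signs turned for *Ighm* (-0.18), *Igkc* (0.10) and *Tnfrsf17* (0.21). Scaling to library size only called 3608 higher and 1589 lower, beside 2491 and 2169, and moved the median log2 fold change of all genes from 0.03 to 0.15, with reversed signs for *Myo5b* (0.10) and *Iglc2* (0.0079). That scaling lost the calls of *Stat6* (-0.23) and *Sel1l* (-0.33) and gained those of *Txndc5* (0.36), *Cd79a* (1.82), *Cxcl12* (0.48), *Lck* (0.36), *Mylk* (0.76) and *Lyz2* (0.54), and DESeq2 gained *Cd79a* (1.64), *Mylk* (0.62) and *Itgae* (-0.97). With *Vil1* or *Krt20* alone as the epithelial reference, the *Pigr* difference was -0.49 or -0.63 and did not pass. The causes of these changes were not tested. Replicate numbers did not pair the libraries (correlations of same-numbered libraries between -0.167 and 0.177), and with the replicate number as a block none of the 8 genes was called, *Pigr* being at -1.06 (adjusted p = 0.0577) among 1950 genes called higher and 1898 lower. Beyond these, *Igha* and *Derl3* kept a negative sign and missed the threshold under all 18 alternatives each. Depth limits *Tnfrsf17* most, and the 10 to 60 counts per library leave no room for a fine comparison.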

Other observations

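Cells of other kinds in the mucosa were followed by their markers. None of 10 T cell genes was called by edgeR, with a median log2 fold change of 0.09 beside 0.03 over all genes tested and a summed level between 56.3 and 101.5 CPM in WT and between 48.7 and 81.9 CPM in KO. Of 10 myeloid genes 3 were called lower and none higher (median -0.34), with the macrophage receptor gene *Csf1r* at -0.83 (adjusted p = 0.0298) and the dendritic cell integrin gene *Itgax* at -1.12 (adjusted p = 0.016), while *C1qa* and *Lyz2* were at 0.16 (adjusted p = 0.436) and 0.41 (adjusted p = 0.086). Of 7 pancreas genes 2 were tested and 0 called, and their summed level was at most 28.1 CPM in any library.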
